A study of Xenopus laevis with 9 samples.

Results

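Anterior tissue of *Xenopus laevis* embryos treated with 10 µM 4-oxo-RA was compared directly with the same tissue treated with 1 µM retinoic acid (RA), over all genes with enough counts to test. The comparison set the 3 libraries of each retinoid against each other, 6 of the 9 in the study, paired by the replicate number in their names. It was taken from a fit to all 9 libraries, and 20811 of 58413 rows of the count table entered the test. All embryos were wild type and came from 3 females, and the labels do not tie a replicate number to a female. Their front portions were dissected at NF stage 12.5, the end of gastrulation, and exposed to a retinoid until they were harvested at NF stage 15, the early neurula. The remaining 3 libraries came from tissue kept in the solvent, dimethyl sulphoxide (DMSO, likewise labelled 10 µM). They serve here as the background level, and in the fit they also enter the filter on low counts and the estimate of spread. The doses of the retinoids differed, so what belongs to the compound and what belongs to the dose cannot be told apart. *X. laevis* is allotetraploid, and where a gene has both an L and an S homeolog each has its own row in the table.

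RA is made from vitamin A by retinol and retinaldehyde dehydrogenases and acts by binding receptors of the RAR class, which sit on DNA as partners of RXR. In the vertebrate neurula it patterns the hindbrain and spinal cord along the head-to-tail axis, where it switches on Hox genes, and an excess shrinks forebrain and midbrain territories. Cells limit their own exposure: RA induces the CYP26 enzymes, which oxidise it, and DHRS3, which returns retinaldehyde to retinol. 4-oxo-RA is one of the products of CYP26 oxidation, and in frog embryos it also binds and activates RAR.

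Library totals ranged from 9.77 to 16.2 (in units of 10⁶ counts) in the 6 retinoid libraries. Summed markers of anterior neural tissue (otx2, six3, rax, hesx1 and fezf2) reached 439 to 608 CPM (counts scaled to a library total of 10⁶) with RA, 521 to 662 with 4-oxo-RA and 823 to 985 with DMSO. Cement gland markers stood at 3421 to 3796 CPM over the retinoid libraries, and posterior markers at 28.3 to 50.3, with 7 of 15 posterior rows at 0 in all 6. Markers of muscle (myod1 and actc1) were uneven: replicate 1 held 201 CPM with RA and 211 with 4-oxo-RA, while the other RA libraries held 16.8 and 9.25 and the other 4-oxo-RA libraries 47.6 and 66.6. The part of uneven dissection in the results below was not tested. The libraries are from mixed tissue, in which fewer cells of a type and less RNA per cell cannot be told apart. Nothing in the labels says that replicates were separate cultures, so p-values measure how far these samples spread, part of which may be technical.

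With 4-oxo-RA, 28 genes were lower than with RA (0.135% of genes tested) and 5 were higher (0.024%), in edgeR's quasi-likelihood test with the replicate number as a block and an adjusted p below 0.05. The lower genes were led by RA-degrading enzymes and Hox genes, and the higher genes by regulators and markers of neural tissue. Log2 fold changes ran from −2.15 to −0.48 among the lower genes and from 0.48 to 0.91 among the higher ones, and 14 genes differed at least 2-fold. All 33 had the same sign in the 3 replicate pairs, which a test blocked on these pairs favours, so this is no separate evidence. The libraries of the treatments did not overlap for 25 of the 28 lower and 4 of the 5 higher genes, against 6.48% of all genes tested. The genes were called on these same libraries, which favours such separation, so this too is no separate evidence. The same test without the block called 0 genes, with 532 at an unadjusted p below 0.05 against 1600 with it, and a lowest adjusted p of 0.286. With the block, DESeq2 called 84 genes and limma-voom 29. Only 5 of the 33 genes stayed called whichever library or replicate number was left out: cyp26a1.L, cyp26a1.S, ripply3.S, ventx2.1.S and LOC108718897, a provisional hoxa4. Leaving out RA replicate 3 left 6 lower and 0 higher genes, and leaving out RA replicate 1 gave 34 lower and 59 higher.

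**Figure D1:**
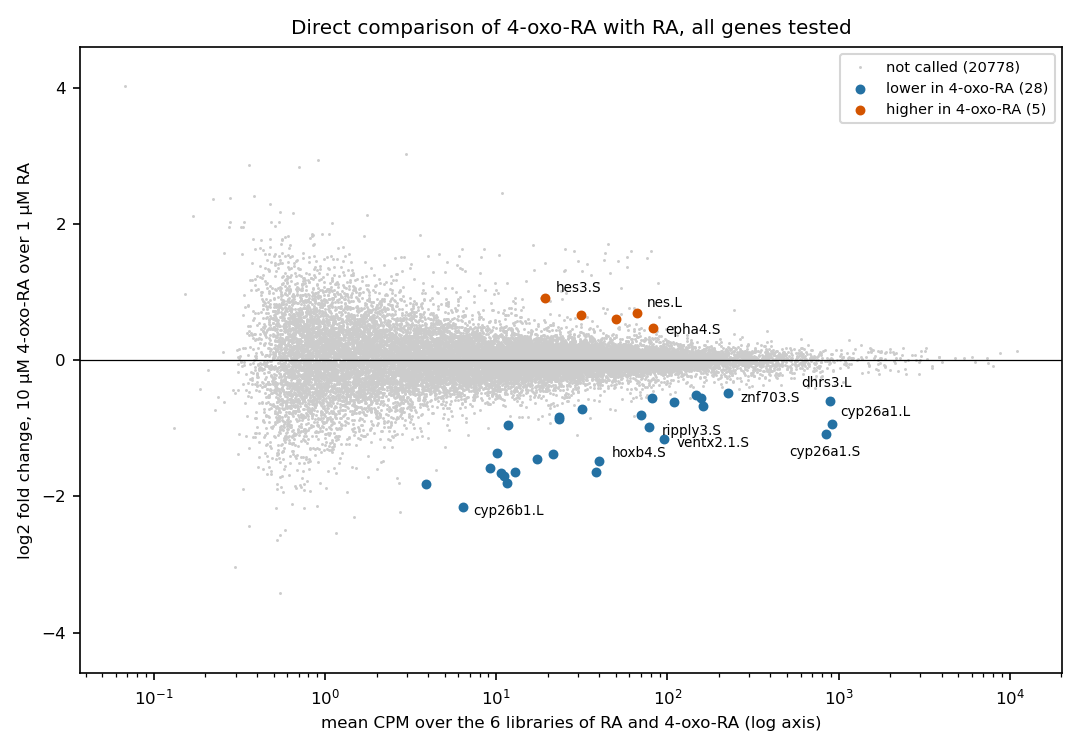
Each point is a gene, with its mean CPM over the 6 retinoid libraries on a logarithmic horizontal axis and its log2 fold change, 4-oxo-RA over RA, on the vertical axis. The 28 lower genes (blue) reach −2.15 and include some of the most abundant RA-induced transcripts, such as cyp26a1 and dhrs3, while the 5 higher genes (orange) stay within 0.91.

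For most genes the data bounded the difference between the treatments to less than 2-fold, which is wider than many of the called differences. The 95% interval of the log2 difference lay within ±1 for 14247 genes (68.5%) and within ±0.5 for 8179 (39.3%). The median difference over all genes was 0.0026, with a median SE of 0.20. At an unadjusted p below 0.05, 814 genes were lower (3.91%) and 786 higher (3.78%). Set against DMSO in the same fit, RA gave 1389 called genes (6.67%) and 4-oxo-RA 700 (3.36%), from contrasts that share the DMSO libraries.

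Genes of the RA-degrading enzymes CYP26A1 and CYP26B1 were lower with 4-oxo-RA. The cyp26a1.S gene, which encodes the main RA hydroxylase of the early embryo, stood at 1042, 1091 and 1324 CPM in the RA libraries and at 560, 523 and 551 in the 4-oxo-RA libraries. With DMSO it stood at 18, 11.7 and 16.3 CPM. Every 4-oxo-RA library was far above every DMSO library and well below every RA library. The level with 4-oxo-RA was 47.4% of that with RA, a log2 difference of −1.08 ± 0.10 (SE, edgeR adjusted p = 1.48e-04). The SE here and below comes from the fit to all 9 libraries, which holds 3 pairs for this comparison, and is not a spread over the pairs. Its homeolog cyp26a1.L showed the same order, with 1038, 1156 and 1442 CPM under RA and 594, 588 and 697 under 4-oxo-RA (log2 difference −0.94 ± 0.10, edgeR adjusted p = 8.73e-04).

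The related enzyme gene cyp26b1.L was almost silent with DMSO, at 0, 2 and 2 counts. It reached 6.78, 11.2 and 13.3 CPM with RA and 1.46, 2.85 and 2.74 with 4-oxo-RA, so that the groups stayed apart. Its log2 difference of −2.15 ± 0.26 (95% interval −2.70 to −1.60, edgeR adjusted p = 0.00181) was the most negative of the 33, and its call was lost without RA replicate 3 (adjusted p = 0.127).

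CYP26C1, the third enzyme of the family, did not pass the test in either copy. For cyp26c1.S the RA libraries held 735, 724 and 842 CPM and the 4-oxo-RA libraries 752, 514 and 843, with overlapping groups. For cyp26c1.L they held 422, 320 and 174 CPM with RA and 554, 317 and 222.5 with 4-oxo-RA, again overlapping. The 95% intervals of these log2 differences were −0.43 to 0.15 and 0.02 to 0.47 (edgeR adjusted p = 0.869 and 0.594). Against DMSO, where they stood at 122 to 160 and 20.6 to 71.6 CPM, the log2 changes were 2.42 with RA and 2.28 with 4-oxo-RA for cyp26c1.S, and 2.78 and 3.03 for cyp26c1.L. In all, 3 of the 5 tested CYP26 genes were lower and 0 higher, with a median of −0.94. Whether the family members differ from each other in their response was not tested.

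**Figure D2:**
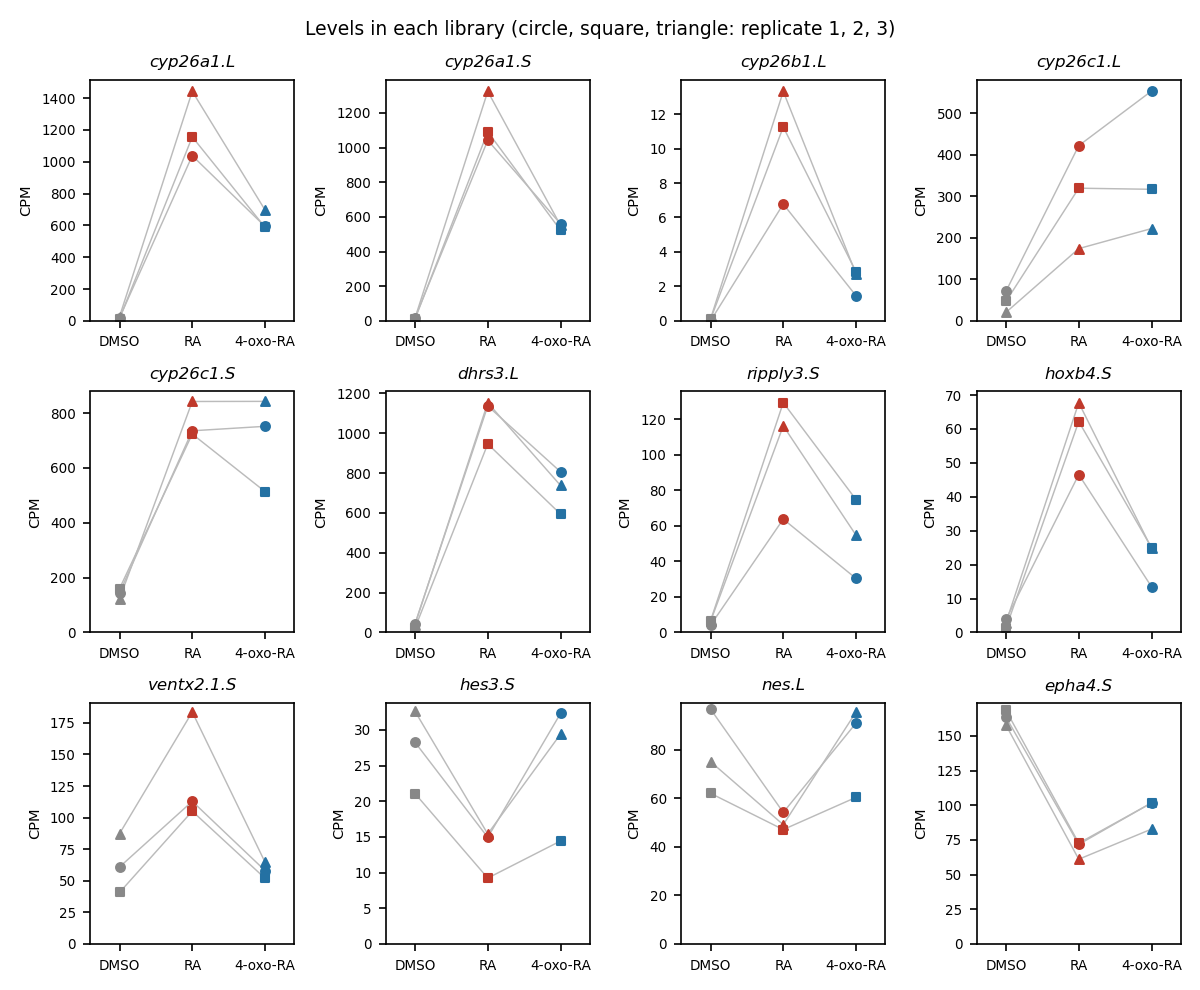
CPM of 12 genes in each library by treatment, on linear axes that start at 0. Grey lines join libraries with the same replicate number. For cyp26a1, cyp26b1.L, dhrs3.L and hoxb4.S all 3 lines fall from RA to 4-oxo-RA and stay above DMSO, for cyp26c1 they do not share a direction, and for hes3.S, nes.L and epha4.S all 3 rise.

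Of the genes that make or store retinoids, dhrs3.L was lower with 4-oxo-RA. It held 1137, 946 and 1153 CPM with RA and 806, 594 and 738 with 4-oxo-RA, against 43.7, 22.1 and 39.5 with DMSO. No library of one retinoid entered the range of the other, and the log2 difference was −0.61 ± 0.10 (edgeR adjusted p = 0.0233). LOC108697667, which the RefSeq annotation names dhrs3.S, was at 31.6, 23.1 and 34.9 CPM with RA and 21, 10.5 and 19.3 with 4-oxo-RA (log2 difference −0.86 ± 0.15, edgeR adjusted p = 0.0342). The table also has a row of its own named dhrs3.S, with few counts and a difference of −0.19 (95% interval −1.27 to 0.90). The calls of dhrs3.L and LOC108697667 were lost when any retinoid library other than RA replicate 1 was left out (adjusted p up to 0.225 and 0.362).

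Among the 13 tested genes for retinoid synthesis, reduction and storage, 1 was lower, 0 were higher and the median difference was −0.03. For aldh1a2.L, the main RA-synthesising dehydrogenase, RA libraries held 57.2, 29.0 and 19.9 CPM and 4-oxo-RA libraries 45.6, 28.1 and 38.2. These overlapped, and the interval of the difference was −0.26 to 0.56. Retinol dehydrogenase genes rdh10.L and rdh10.S differed by 0.19 (−0.01 to 0.40) and −0.13 (−0.38 to 0.12).

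Carriers and receptors gave 0 calls. The cellular RA-binding protein genes crabp2.L and crabp2.S differed by 0.10 (95% interval −0.18 to 0.39) and 0.06 (−0.12 to 0.25). All 4 tested genes for retinoid binding and uptake had intervals within ±1, with a median of 0.08. The most abundant receptor row, rarg.S, stood at 159, 130 and 138 CPM with RA and 158, 130 and 143 with 4-oxo-RA, almost library for library the same, with an interval of −0.14 to 0.17. Its relative rara.L was at 39.9, 46.2 and 52.5 CPM with RA and 34.6, 34.4 and 35.5 with 4-oxo-RA. Those groups were apart, but the log2 difference of −0.41 ± 0.12 did not pass (edgeR adjusted p = 0.386). The weakly expressed rarb.L and rarg.L gave −0.52 (−1.64 to 0.59) and 1.33 (0.37 to 2.30), and rxra.L gave −0.13 (−0.46 to 0.19). In edgeR, the 7 RAR and RXR genes gave 0 calls and 1 gene in each direction at an unadjusted p below 0.05. The 15 coregulator genes gave 0 calls and 1 lower gene at that level, nrip1.S, the corepressor RIP140, with −0.28 (−0.53 to −0.02). DESeq2 and limma-voom also called 0 of the carrier, receptor and coregulator genes.

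Hox genes, which give cells their position along the axis, were lower with 4-oxo-RA or did not pass. Of 32 tested Hox rows, 7 of them with provisional names, 10 were lower and 0 higher, and all 32 fold changes were negative. Over all genes tested, 0.135% were lower and the median difference was 0.0026. Medians were not the same in each paralog group. The median was −0.49 for 6 genes of paralog group 1, −0.45 and −0.55 for the 3 genes each of groups 2 and 3, −1.54 for 6 genes of group 4 and −1.38 for 5 genes of group 5. It was −1.62 for 5 genes of group 6, of which 0 were called at mean levels of at most 9.45 CPM with RA. That value belongs to the provisional hoxa6 at LOC108719928, with 8, 21 and 18 counts under RA and 1, 4 and 11 under 4-oxo-RA. This row passed the filter on low counts through its RA libraries alone, which favours a negative difference. For the few weakly expressed genes of groups 7, 8 and 9 the median was −0.68 (2 genes), −1.10 (1 gene) and −0.53 (1 gene). The difference between these groups was not tested. In each replicate pair the medians of groups 4, 5 and 6 lay between −1.67 and −1.39, and those of groups 1, 2 and 3 between −0.91 and −0.33.

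**Figure D3:**
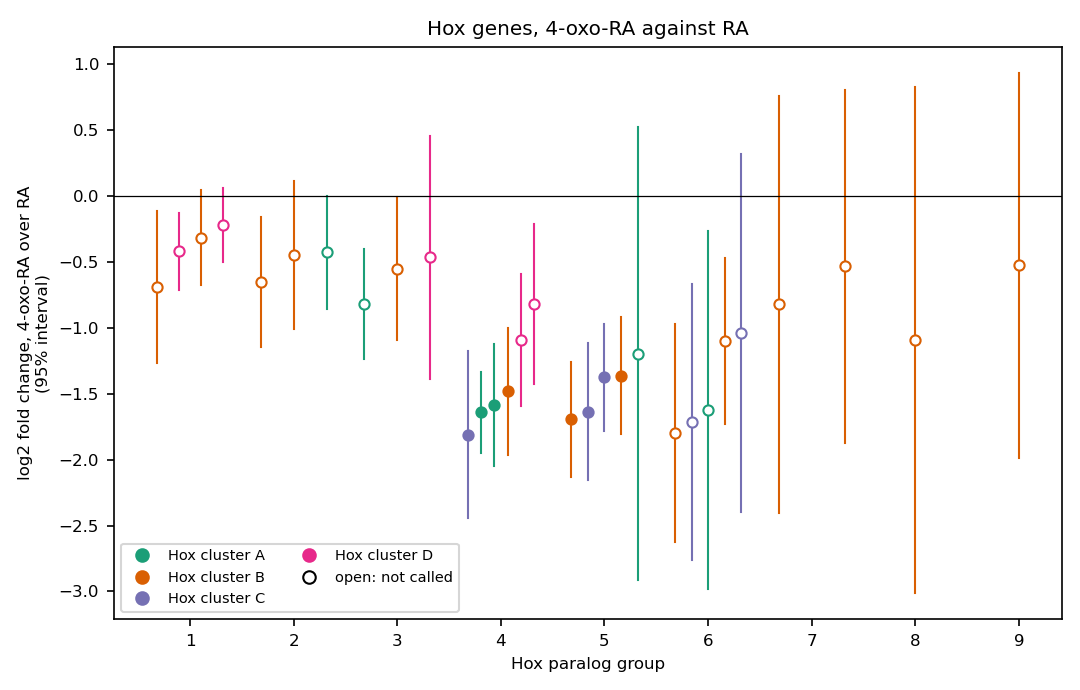
Log2 fold change of tested Hox genes, 4-oxo-RA over RA, with its 95% interval, by paralog group and coloured by cluster. Within a group genes are in order of their change, and open circles did not pass the test. All points lie below 0, and the called genes of groups 4 and 5 lie between −1.81 and −1.36.

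At the front of the clusters, several genes did not pass the test. In group 1, hoxb1.S gave −0.32 (95% interval −0.68 to 0.04), hoxb1.L −0.69 (−1.27 to −0.12), hoxd1.L −0.22 (−0.50 to 0.06) and hoxd1.S −0.42 (−0.72 to −0.13). In groups 2 and 3, hoxa2.S gave −0.43, hoxb3.L −0.55 and hoxd3.L −0.47, and none of these passed (edgeR adjusted p = 0.649, 0.636 and 0.854).

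Farther back, the group 4 gene hoxb4.S stood at 46.5, 62.2 and 67.7 CPM with RA and at 13.5, 25 and 24.8 with 4-oxo-RA. DMSO libraries held 3.86, 1.31 and 2.92. The lowest RA library was above the highest 4-oxo-RA library, and the log2 difference was −1.48 ± 0.22 (edgeR adjusted p = 0.0120). The provisional hoxa4 at LOC108718897, which RefSeq places between hoxa3.L and hoxa5.L, held 54.1, 49.1 and 71.0 CPM with RA and 17.8, 14.7 and 23.9 with 4-oxo-RA. It had the same separation and one of the lowest adjusted p of the comparison (log2 difference −1.64 ± 0.14, edgeR adjusted p = 1.48e-04). The provisional hoxa4 between hoxa3.S and hoxa5.S (LOC108719683) gave −1.59 ± 0.22 (edgeR adjusted p = 0.00613), and the provisional hoxc4 (LOC108709892) −1.81 ± 0.30 (edgeR adjusted p = 0.0225). By contrast hoxd4.L held 49.5, 87.4 and 106 CPM with RA and 26.4, 44.7 and 68.0 with 4-oxo-RA. Its groups overlapped, and −0.82 ± 0.28 did not pass (edgeR adjusted p = 0.481). The provisional hoxd4 at LOC108703007, also with overlapping groups, gave −1.09 ± 0.23 and did not pass either (edgeR adjusted p = 0.114). For this row limma-voom gave a call (adjusted p = 0.0342) and DESeq2 did not (adjusted p = 0.860).

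In group 5, hoxb5.S held 12.3, 14.6 and 24.5 CPM with RA and 3.76, 5.31 and 6.52 with 4-oxo-RA, from at most 0.208 with DMSO. The groups stayed apart, at a log2 difference of −1.70 ± 0.20 (edgeR adjusted p = 0.00181). The homeolog hoxb5.L (−1.36 ± 0.21), hoxc5.L (−1.64 ± 0.24) and the provisional hoxc5 at LOC108709893 (−1.38 ± 0.19) were lower too (edgeR adjusted p = 0.0126, 0.0120 and 0.00659), with overlapping groups for hoxb5.L. LOC494794, which carries no gene name and lies between hoxb1.L and hoxb5.L in RefSeq, was at 3.94, 6.49 and 7.59 CPM with RA and 0.732, 1.74 and 2.87 with 4-oxo-RA (−1.82 ± 0.32, edgeR adjusted p = 0.0342). In group 6, hoxb6.S gave −1.80 (95% interval −2.63 to −0.98, edgeR adjusted p = 0.114) and hoxb6.L −1.10 (−1.73 to −0.48, edgeR adjusted p = 0.281).

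The calls of these Hox genes and of LOC494794 rested on few libraries. DESeq2 did not call hoxb4.S or LOC108709892 (adjusted p = 0.191 and 0.0963), and limma-voom did not call hoxb5.L or LOC494794 (adjusted p = 0.0519 and 0.120). LOC108718897 stayed called whichever library was left out, and hoxb5.S lost its call without RA replicate 3 alone (adjusted p = 0.131). Without RA replicate 2 the calls of hoxb4.S, hoxb5.L, hoxc5.L, LOC108709892, LOC108709893, LOC108719683 and LOC494794 were lost. Those of hoxb4.S, hoxb5.L, hoxc5.L, LOC108709892, LOC108719683 and LOC494794 were also lost without RA replicate 3. Leaving out 4-oxo-RA libraries ended the calls of LOC494794, LOC108709892 and hoxc5.L for each of the 3, of hoxb4.S for replicates 1 and 3, of hoxb5.L for replicates 2 and 3, and of LOC108719683 and LOC108709893 for replicate 2. The call of LOC494794 was also lost without RA replicate 1. Adjusted p in these fits ran from 0.0538 up to 0.527, which hoxb5.L reached, and the sign did not change in any.

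Among partners of the Hox genes and other hindbrain genes, few passed. The 11 tested Hox cofactor genes gave 0 calls in edgeR, DESeq2 and limma-voom, 1 gene in each direction at an unadjusted p below 0.05, and a median of −0.15. The cofactor gene meis3.L, a hindbrain inducer in frogs, was at 434, 452 and 543 CPM with RA and 407, 385 and 437 with 4-oxo-RA, with intervals of −0.46 to 0.03 for this copy and −0.39 to 0.09 for meis3.S. In a list of 19 other hindbrain genes, 2 were lower and 1 higher. The lower ones were znf703.L (−0.51 ± 0.08) and znf703.S (−0.48 ± 0.07), the copies of a zinc finger repressor of the hindbrain, each with an edgeR adjusted p of 0.0120. For znf703.S the RA libraries held 280, 233 and 278 CPM, the 4-oxo-RA libraries 198, 171 and 195 and the DMSO libraries 63.8, 57.1 and 60.2, in 3 tiers. Both calls were lost when any retinoid library other than RA replicate 1 was left out (adjusted p up to 0.135). The rhombomere regulator egr2.L was close to silent with either retinoid, at 0.376 to 0.833 CPM with RA and 0.326 to 1.46 with 4-oxo-RA against 16.3 to 28.7 with DMSO (interval of the difference −0.43 to 1.26).

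The other genes with lower levels were regulators of several tissues. The corepressor gene ripply3.S, which limits T-box factors in pharyngeal and placodal tissue, held 63.9, 130 and 116 CPM with RA and 30.4, 74.8 and 54.8 with 4-oxo-RA, against 4.07, 6.52 and 6.24 with DMSO. Replicate 1 was low under both retinoids, so the groups overlapped while each pair fell by a similar amount (−0.97 ± 0.11, edgeR adjusted p = 0.00101). The repressor gene bhlhe40.L held 25.2, 27.7 and 22.6 CPM with RA and 11, 12.36 and 5.41 with 4-oxo-RA, without overlap (−1.45 ± 0.21, edgeR adjusted p = 0.0104). The antiproliferative gene btg2.S was lower by a smaller amount (−0.67 ± 0.10, edgeR adjusted p = 0.0120), as were gata5.L, a factor of heart and endoderm (−0.72 ± 0.13, edgeR adjusted p = 0.0409), and the T-box gene tbx3.L (−0.56 ± 0.10, edgeR adjusted p = 0.0342). The signalling adaptor gene sh2b3.L (−0.96 ± 0.17, edgeR adjusted p = 0.0409) and a provisional rerg, LOC108713844, a Ras-related GTPase gene (−0.84 ± 0.15, edgeR adjusted p = 0.0426), completed this set. Of these, ripply3.S stayed called in each fit that left out a library. Leaving out any of 3 libraries ended the call of bhlhe40.L (RA replicates 2 and 3, 4-oxo-RA replicate 3) and of btg2.S (RA replicate 3, 4-oxo-RA replicates 1 and 3). Leaving out any of the 6 retinoid libraries ended those of gata5.L and LOC108713844, and any of them but RA replicate 1 those of tbx3.L and sh2b3.L, with adjusted p up to 0.576. In limma-voom gata5.L, sh2b3.L and LOC108713844 were not called (adjusted p = 0.0538, 0.0573 and 0.0733).

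The orphan receptor gene gpr151.L held 16.3, 15.1 and 16.6 CPM with RA, 4.49, 8.71 and 2.54 with 4-oxo-RA and 14.9, 11.3 and 12.9 with DMSO. Its 4-oxo-RA libraries were below all 6 others, and the log2 difference from RA was −1.66 ± 0.29 (edgeR adjusted p = 0.0342). In the same fit it differed from DMSO by −1.35 with 4-oxo-RA (edgeR adjusted p = 0.016) and by 0.31 with RA (edgeR adjusted p = 0.62). Without the block its difference between 4-oxo-RA and DMSO did not pass (edgeR adjusted p = 0.23). Its call against RA was lost without 4-oxo-RA replicate 1 or 3 or RA replicate 2 or 3 (adjusted p up to 0.339).

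The S copies of ventx2.1 and ventx2.2, homeobox repressors induced by BMP signalling in ventral tissue, were lower with 4-oxo-RA than with RA. Levels of ventx2.1.S were 113, 105 and 184 CPM with RA, 58.1, 52.0 and 64.8 with 4-oxo-RA and 60.9, 40.7 and 87.3 with DMSO. The RA libraries were above all others, and the 4-oxo-RA and DMSO libraries overlapped. The difference between the retinoids was −1.16 ± 0.13 (edgeR adjusted p = 9.52e-04), and that between 4-oxo-RA and DMSO was −0.05 (edgeR adjusted p = 0.93). For ventx2.2.S the difference between the retinoids was −0.81 ± 0.11 (edgeR adjusted p = 0.00460), lost without RA replicate 3 (adjusted p = 0.126). Between 4-oxo-RA and DMSO it was −0.41, just inside the threshold (edgeR adjusted p = 0.0479) and outside it without the block (edgeR adjusted p = 0.9997). Those groups overlapped, at 40.9 to 60.5 CPM with 4-oxo-RA and 47.6 to 81.8 with DMSO. The L copies did not pass, with −0.39 for ventx2.1.L and −0.43 for ventx2.2.L (edgeR adjusted p = 0.585 and 0.434). How reads shared by these near-identical genes were counted is unknown, so values of single ventx copies are uncertain. Among 33 tested genes of BMP and TGF-beta signalling, these 2 were the lower calls, 0 were higher, 11 were lower at an unadjusted p below 0.05 and the median was 0.01, while DESeq2 called 5 lower and limma-voom 2.

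The higher genes included hes3.S, nes.L, epha4.S and LOC108705719, which has no match in the RefSeq table used here. The hes3.S gene, a bHLH repressor related to Notch effectors, held 14.9, 9.23 and 15.4 CPM with RA and 32.3, 14.4 and 29.4 with 4-oxo-RA, against 28.2, 21.1 and 32.6 with DMSO. Replicate 2 was the lowest in each treatment, so the groups overlapped while each pair rose, by 0.91 ± 0.15 (edgeR adjusted p = 0.0225). In nes.L, the intermediate filament nestin of neural progenitors, the RA libraries held 54.1, 47.1 and 49.1 CPM and the 4-oxo-RA libraries 90.9, 60.4 and 95.5. These did not overlap, at a difference of 0.69 ± 0.12 (edgeR adjusted p = 0.0313). The DMSO libraries held 96.7, 62.0 and 75.1 CPM of nes.L. From DMSO it differed by 0.08 with 4-oxo-RA (edgeR adjusted p = 0.87) and by −0.61 with RA (edgeR adjusted p = 0.0039). Without the block the change of nes.L with RA did not pass (edgeR adjusted p = 0.22).

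The ephrin receptor gene epha4.S, a marker of hindbrain segments, held 71.7, 72.6 and 61.0 CPM with RA, 102, 102 and 82.8 with 4-oxo-RA and 163, 168 and 158 with DMSO. The treatments formed 3 levels with 4-oxo-RA in the middle (0.48 ± 0.08 over RA, edgeR adjusted p = 0.0342). LOC108705719 differed by 0.66 ± 0.12 (edgeR adjusted p = 0.0420). Leaving out any of the 6 retinoid libraries ended the calls of epha4.S and LOC108705719, the latter also without DMSO replicate 1 (adjusted p up to 0.438), and neither was called in limma-voom (adjusted p = 0.0504 for each). The call of hes3.S withstood the loss of RA replicate 1 or 4-oxo-RA replicate 2, and that of nes.L the loss of replicate 2 of either retinoid.

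**Figure D4:**
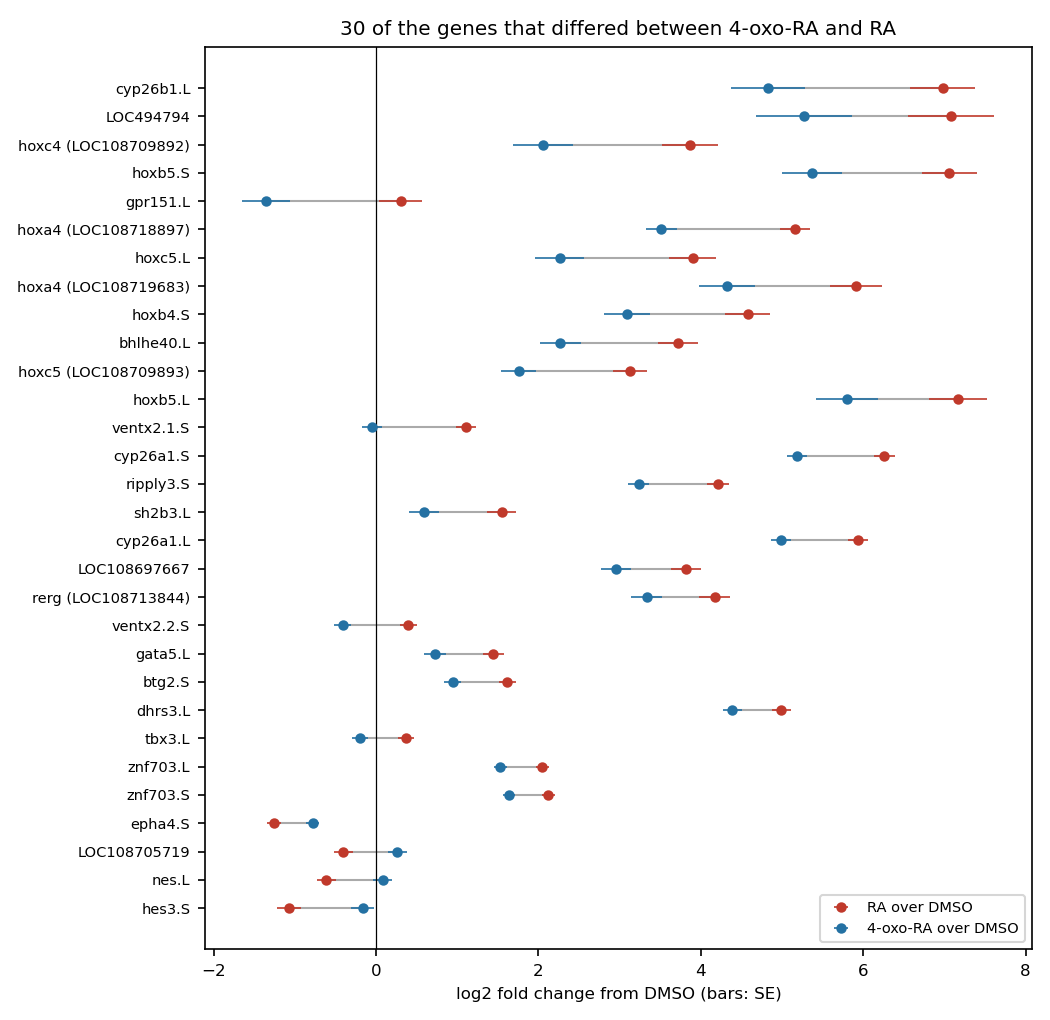
Log2 fold change from DMSO with RA (red) and with 4-oxo-RA (blue) for 30 of the 33 genes that differed between the retinoids, with the SE as bars, in order of their difference. The comparisons share the DMSO libraries. For most lower genes both points lie right of 0 with blue nearer to it, whereas gpr151.L, ventx2.1.S, ventx2.2.S and tbx3.L have blue at or left of 0.

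Beyond these calls, the forebrain and midbrain, neural progenitor, primary neurogenesis and neural crest lists had mostly positive differences that did not pass the test. The eye field list was split, with 8 positive and 9 negative. Of 38 tested forebrain and midbrain genes, edgeR called 0, 34 had a positive difference, 11 were higher and 0 lower at an unadjusted p below 0.05, and the median was 0.38. At that level 3.78% of all genes tested were higher and 3.91% lower. Over the 800 tested genes of all lists, 415 differences were positive and 385 negative. L and S copies count apart here, and the 38 rows come from 24 symbols. DESeq2 called 2 of them higher and limma-voom 0. The head homeobox gene otx1.L held 22.2, 10.8 and 11.3 CPM with RA and 30.5, 21.9 and 26.2 with 4-oxo-RA, against 77.3 to 80.7 with DMSO. The difference of 0.87 ± 0.17 lay just outside the threshold (edgeR adjusted p = 0.0668), which it passed in DESeq2 (adjusted p = 3.57e-04) and not in limma-voom (0.0573). For otx2.L the difference was 0.44 (95% interval 0.15 to 0.74, edgeR adjusted p = 0.404), for six3.L, a forebrain and eye factor, 0.46 (0.20 to 0.72, edgeR adjusted p = 0.270), and for fezf2.L 0.55 (0.20 to 0.90, edgeR adjusted p = 0.358). The anterior neural marker sum given above shares otx2, six3, hesx1 and fezf2 with this list, so its like direction is no separate evidence. Its remaining marker, rax, is not in the list and differed by −0.007 (rax.L) and 0.13 (rax.S), and neither copy passed. The part of tissue composition in the list was not tested.

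The 24 neural progenitor genes gave 1 higher call in edgeR and limma-voom and 4 in DESeq2, with 12 genes higher and 1 lower at an unadjusted p below 0.05 and a median of 0.39. The 26 primary neurogenesis genes gave 0 calls in edgeR, DESeq2 and limma-voom, 4 higher and 0 lower at that level and a median of 0.32. The 33 neural crest genes gave 0 calls in edgeR and limma-voom and 1 higher in DESeq2, with 10 higher and 2 lower at that level and a median of 0.16. Among them snai2.L, a repressor that marks the crest, depended on a single library. It held 50.7, 11.9 and 17.3 CPM with RA and 60.2, 49.0 and 45.9 with 4-oxo-RA, so RA replicate 1 alone reached the 4-oxo-RA range. Its difference was 1.13 ± 0.28 (edgeR adjusted p = 0.230), and without RA replicate 1 it was 1.80 (edgeR adjusted p = 1.36e-04). Over the alternatives its adjusted p ran from 1.40e-18 with no filter on low counts to 1.00 without the block. The eye field list of 17 genes had 1 lower call, tbx3.L, in edgeR and limma-voom, and 2 lower in DESeq2. In this list 8 differences were positive and 9 negative, with 2 higher and 4 lower at an unadjusted p below 0.05. The eye field median was −0.01. The cement gland list of 16 had 1 higher call in edgeR and limma-voom and 3 in DESeq2. The edgeR call is the same gene as that of the neural progenitor list, and it is neither nes.L nor hes3.S. At an unadjusted p below 0.05, 4 genes of the cement gland list were higher and 0 lower, and the list median was 0.06. Intervals were −0.17 to 0.28 for ag1.L and −0.20 to 0.18 for ag1.S, which encode a secreted cement gland protein.

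**Figure D5:**
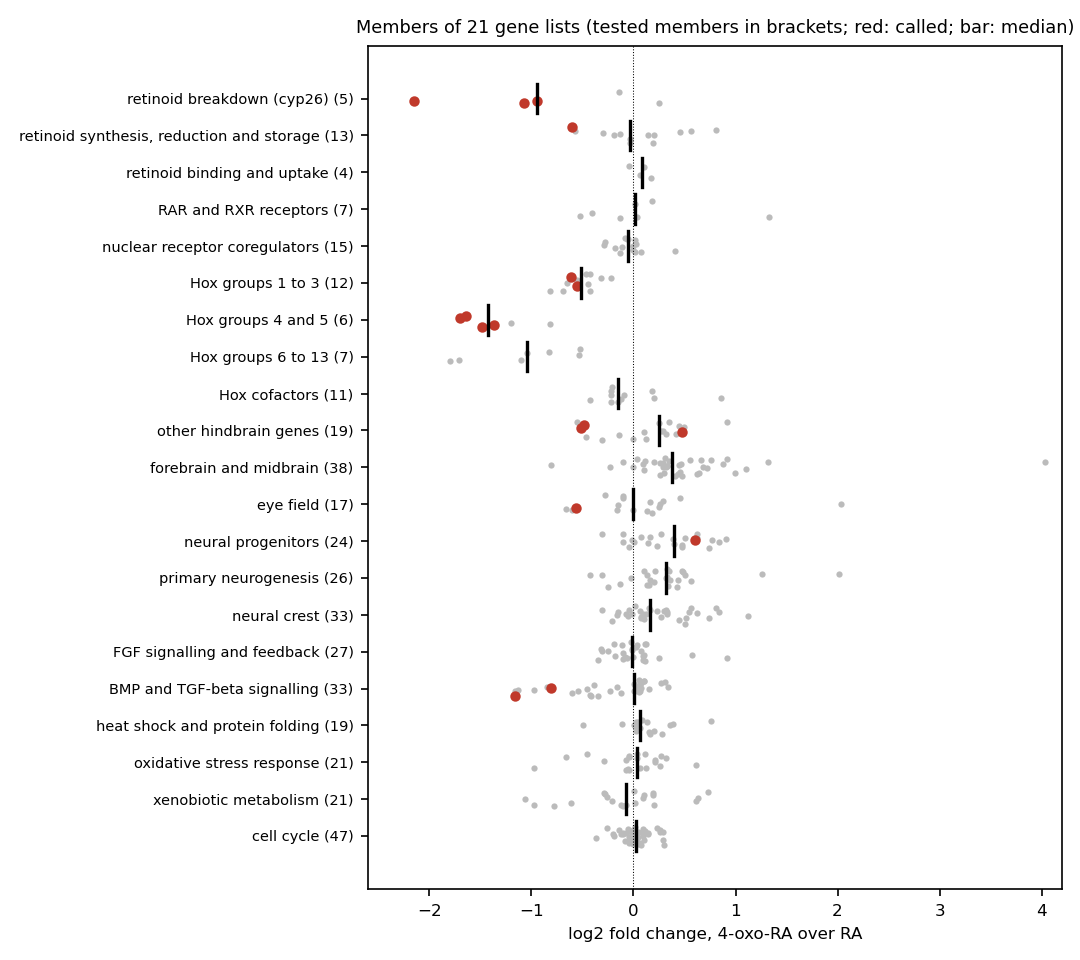
Log2 fold change, 4-oxo-RA over RA, of the tested members of 21 gene lists, with called genes in red and the list median as a bar. Hox groups 4 and 5 have the most negative median (−1.42), the forebrain and neural progenitor lists lie to the right (0.38 and 0.39), and the cell cycle list stays between −0.37 and 0.30.

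In signalling pathways that pattern the neurula, few genes differed. The 27 FGF, 45 Wnt, 25 Notch and 16 hedgehog genes gave 0 calls in edgeR, DESeq2 and limma-voom, with medians of −0.01, 0.06, 0.11 and 0.10. At an unadjusted p below 0.05, 0, 6, 3 and 1 were higher and 2, 3, 0 and 0 lower. The FGF feedback phosphatase gene dusp6.L held 184, 162 and 197 CPM with RA and 160, 132 and 143 with 4-oxo-RA, without overlap, and its difference of −0.32 ± 0.09 did not pass (edgeR adjusted p = 0.344). The Wnt target genes sp5.L and sp5.S differed by 0.74 (95% interval 0.33 to 1.16) and 0.90 (0.36 to 1.44) and did not pass (edgeR adjusted p = 0.275 and 0.322). A list of 32 preplacodal and placode genes had 1 lower call, ripply3.S, with 5 higher and 9 lower at an unadjusted p below 0.05 and a median of 0.03. In it gata3.S gave −0.39 ± 0.08 and tbx1.S −0.42 ± 0.10 (edgeR adjusted p = 0.115 and 0.146). DESeq2 called both (adjusted p = 0.0161 and 0.0257) and in this list 4 lower and 2 higher genes, limma-voom 1 lower.

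For 17 of the 33 called genes the other copy was tested, and its difference had the same sign in 17 of 17 and was itself called in 8. For 5 more the other copy was in the table with too few counts to test. With L and S counts summed, 22 genes were lower and 4 higher among 17359 tested.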

How the data were processed

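The authors deposited unnormalized counts of reads for each gene in 9 samples, made from stranded mRNA libraries sequenced on 1 lane. STAR 2.7.3, an aligner, was among the tools used, per the submitters' processing notes. The counter, build and annotation are not given in the sources used here. Reads shared by homeologs or near-identical genes therefore carry an unknown treatment, and no coordinates are printed. RefSeq names and gene neighbours are from Xenopus_laevis_v10.1.

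From the counts, CPM were computed on TMM-scaled library sizes, and edgeR 4.0.16 (R 4.3.3) fitted treatment and replicate number to all 9 libraries after its filter on low counts by group. The SE is the log2 fold change divided by the square root of F. P-values were adjusted over 20811 genes by Benjamini-Hochberg, and a gene was called at an adjusted p below 0.05. Differences are log2, 4-oxo-RA over RA, and intervals are 95%.

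The replicate numbers pair the samples: deviations from the group means correlated across genes at 0.444 to 0.500 between RA and 4-oxo-RA libraries with the same number and at −0.308 to −0.132 otherwise. Deviations from a group mean cancel out within the group, so the negative values largely follow from the positive ones and are no separate evidence. This pairing comes from the data and not from the labels. Replicates differed beyond sampling noise, with a chi-square per degree of freedom of 14.3 to 21.6.

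Named were the 10 largest called rises and falls with a symbol, at least 1 CPM in the higher group and 1 sign in all pairs, the 3 called members of each of 43 gene lists with the smallest adjusted p, and a fixed set of 41 symbols, though some genes that this rule names are not reported here. LOC rows, sh2b3.L and genes named only in the closing section were picked with their values in view. The members and lists were chosen with earlier results of these data known. Scripts were tested on simulated data. Alternatives were the fit without the block, the 6 retinoid libraries only, RLE and upper quartile scaling, DESeq2 1.42.0, limma-voom (limma 3.58.1), other filters, thinned counts, summed homeologs, other thresholds, and each library or replicate number left out.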

Additional observations from a re-analysis of the deposited data

How the results depend on the processing

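All 33 genes kept their sign in every alternative in which they were tested, and 0 results for single genes reversed. The counts were less stable. Without the replicate block 0 genes were higher and 0 lower, so every call rests on the pairing by replicate number, and RA and 4-oxo-RA against DMSO gave 349 and 153 calls in place of 1389 and 700. RLE and upper quartile scaling gave 5 higher and 28 lower, as reported. Restricting the fit to the 6 retinoid libraries gave 14 higher and 37 lower, DESeq2 28 and 56, limma-voom 4 and 25, thinned counts 8 and 31, a minimum of 10 counts in every library 5 and 22, and no filter on low counts 161 and 128; the cause was not tested. An adjusted p below 0.01 left 0 higher and 10 lower, and a fold of at least 2 left 0 and 14. Leaving out 1 library gave 0 to 59 higher and 6 to 34 lower genes, and leaving out all libraries of a replicate number gave 3 to 69 higher and 6 to 33 lower. The highest counts came without RA replicate 1 or number 1, and the lowest without RA replicate 3 or number 3. With 3 pairs and totals of 9.77 to 16.2 (10⁶ counts), intervals of weak genes such as those of Hox groups 7 to 9 are wide, and a gene that did not pass is not shown to be equal. The dose difference and the compound cannot be told apart.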

Other observations

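Tissues other than the nervous system are also present in the dissected pieces, and the tissue lists in this section gave 1 call in the direct comparison. Beside the counts below, 385 of the 800 tested genes of all lists had a negative difference, with L and S copies counted apart. At an unadjusted p below 0.05, 3.91% of all genes tested were lower and 3.78% higher. The placode and cement gland lists, given above, had 1 call each, that of the cement gland list being a gene also in the neural progenitor list. Of 20 cardiac and pharyngeal genes, gata5.L was lower, 17 had a negative difference and the median was −0.23, while limma-voom called 0 of this list (gata5.L adjusted p = 0.0538) and DESeq2 2 lower. The 17 anterior endoderm genes gave 0 calls in edgeR, with 15 negative, 6 lower and 0 higher at an unadjusted p below 0.05 and a median of −0.29, and DESeq2 called 2 lower and limma-voom 0. The 26 genes of multiciliated cells and the 13 of ionocytes, which are skin cell types, gave 0 calls in edgeR, DESeq2 and limma-voom. Of these, 21 and 11 were negative, 6 and 5 were lower and 0 higher at an unadjusted p below 0.05, and both medians were −0.20. The ionocyte regulator sum (foxi1) stood at 80.5, 93.1 and 89.7 CPM under RA and at 70.7, 65.3 and 69.3 under 4-oxo-RA. The 20 epidermal genes had a median of −0.04, with 0 calls in the same 3 tools and 0 higher and 1 lower at that level.

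In mesoderm, edgeR and limma-voom called 0 of 16 pronephros, 23 somite, 25 organizer and notochord, 17 blood and endothelium and 11 posterior growth zone genes, with medians of −0.23, 0.37, 0.10, 0.10 and −0.33. At an unadjusted p below 0.05, 2, 7, 4, 2 and 0 were higher and 4, 3, 1, 2 and 2 lower, and DESeq2 called 3 pronephros genes lower, 1 blood gene higher and 0 others. The somite values stand beside the uneven muscle markers, which were highest in replicate 1 of each treatment, and their part in the somite values was not tested.

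Stress responses gave no call in edgeR. Heat shock (19 genes), unfolded protein response (33), oxidative stress (21) and xenobiotic metabolism (21) gave 0 calls, with medians of 0.07, −0.01, 0.03 and −0.07. At an unadjusted p below 0.05, 2, 0, 2 and 1 were higher and 1, 1, 1 and 1 lower, and DESeq2 and limma-voom each called 1 heat shock gene higher and 0 others. The endoplasmic reticulum chaperone gene hspa5.L differed by 0.03 (95% interval −0.15 to 0.21), the heme oxygenase gene hmox1.L by 0.27 (0.06 to 0.47) and the detoxifying cyp1a1.L by 0.10 (−0.86 to 1.07). Of 47 cell cycle genes, 0 were called in edgeR, DESeq2 and limma-voom, 4 were higher and 0 lower at an unadjusted p below 0.05, and 45 had an interval within ±1. The lists of 26 cholesterol synthesis genes, 23 lipid handling genes and 32 genes of glycolysis and hypoxia gave 0 calls in the 3 tools, with medians of 0.02, 0.03 and −0.05. At that level 0, 0 and 2 were higher and 1, 3 and 3 lower. The antiproliferative gene btg2.S was the 1 lower call both among 26 immediate-early genes, of which 22 were negative, and among 24 p53 and apoptosis genes, whose median was 0.06. In a list of 21 genes that retinoids raise in other systems, 4 were lower (bhlhe40.L, dhrs3.L, znf703.L and znf703.S) and 0 higher, with a median of −0.15.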
